A study of Mus musculus with 8 samples.

Results

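Genes that mark the formative and primed stages of pluripotency were followed across an *Eftud2* knockdown (KD) in mouse embryonic stem cells (mESCs): *Fgf5*, *Otx2*, *Pou3f1*, *Lef1*, *Zic2*, *Lin28b*, *Sall2*, *Cdh2* and *Sox3*. These 9 genes were chosen by name and found in a table of 55385 genes by matching each gene identifier, without its version, to its GENCODE symbol. Of the 9, 8 passed the expression filter that 17445 genes of the table passed, and *Fgf5* did not. *Eftud2* encodes a GTPase of the U5 small nuclear ribonucleoprotein, a part of the spliceosome, and the study asked how mESCs respond when splicing is moderately perturbed.

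All 8 libraries came from R1 mESCs, an established line whose genotype is labelled WT, and were poly(A)-selected. Every culture was kept in N2B27 with 2i and Lif (inhibitors of MEK and GSK3 and the cytokine that holds mESCs in the naive state) on plates coated with poly-L-ornithine and laminin. Each was exposed to lentivirus for some hours on each of 2 days and was selected with puromycin for 3 days. The groups were Eftud2 shRNA1 (3 biological replicates), Eftud2 shRNA2 (3 biological replicates) and a non-targeting hairpin, nt-shRNA (2 biological replicates), so both KD comparisons share the same 2 control libraries and p-values measure the spread between so few cultures. Both hairpins target *Eftud2*, at different parts of its transcript, and the selected cultures were measured in bulk, so that fewer cells expressing a gene and less RNA per cell cannot be told apart.

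Naive mESCs stand for the early epiblast, whereas formative cells stand for the epiblast around implantation and primed cells for the later epiblast that is ready to form germ layers. On leaving the naive state, cells silence genes such as *Zfp42* and *Klf4* and switch on a set that includes the transcription factors Otx2 and Pou3f1 and the secreted factor Fgf5. MEK and GSK3 inhibition holds this switch back, so that the markers are low in 2i culture.

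Library depth ran from 19569525 to 29871048 counts, and 3 counts in a library correspond to between 0.1045 and 0.1481 CPM (the count relative to the library total, scaled by the TMM factors of edgeR). *Eftud2* itself was at 262 and 256 CPM in the nt-shRNA libraries, at 225 to 232 CPM with shRNA1 and at 198 to 235 CPM with shRNA2. Its log2 fold change against nt-shRNA was -0.18 with shRNA1 (adjusted p = 0.0514) and -0.29 with shRNA2 (adjusted p = 0.0012). By qPCR, a different measure, the paper reported a larger loss of *Eftud2* RNA with both hairpins. It also showed less EFTUD2 protein on a western blot. The reason for the smaller change in the counts was not tested. With shRNA1 *Eftud2* was called under 5 of 15 alternative settings. Among them were the replicate number as a block (-0.21, adjusted p = 0.0206) and leaving out shRNA2 replicate 2 (adjusted p = 0.0415) or 3 (adjusted p = 0.0215). It was at -0.06 with library size alone. Adjusted p-values come from edgeR's quasi-likelihood test over 17445 genes, except where another tool or setting is named, which was adjusted over the genes it tested, and genes with an adjusted p under 0.05 were called. The core pluripotency genes *Pou5f1*, *Sox2* and *Sall4* summed to between 1030 and 1250 CPM in every library, while 7 fibroblast markers summed to between 4.60 and 7.57 CPM.

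Of the 8 tested markers, 4 had a positive log2 fold change with shRNA1 and 2 with shRNA2. The counts of called markers were not tested against those of all genes. With shRNA1, 1 marker was called higher (*Lin28b*) and 0 lower, where 13.8% and 17.1% of all tested genes were called higher and lower. In the same comparison DESeq2 gave 1 marker higher and 0 lower, where it called 2001 of 17445 genes higher and 2582 lower. Under shRNA2, 2 markers were called higher (*Lin28b* and *Cdh2*) and 1 lower (*Otx2*), where 27.2% and 28.7% of all tested genes were called higher and lower. The median log2 fold change of the 8 markers was 0.17 with shRNA1 and -0.11 with shRNA2, beside -0.01 and 0.00 over all tested genes. The median with shRNA1 was -0.022 over all 9 markers with no filter, -0.004 over the 7 markers at a mean of at least 1 CPM and 0.062 without nt-shRNA replicate 1. That with shRNA2 was -0.046 without nt-shRNA replicate 2, -0.192 without shRNA2 replicate 3 and -0.022 with library size alone. Compared directly, shRNA2 was higher than shRNA1 for 2 markers (*Lin28b* and *Cdh2*) and lower for 2 (*Otx2* and *Sox3*), where 16.9% and 18.7% of tested genes were called higher and lower.

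**Figure D1:**
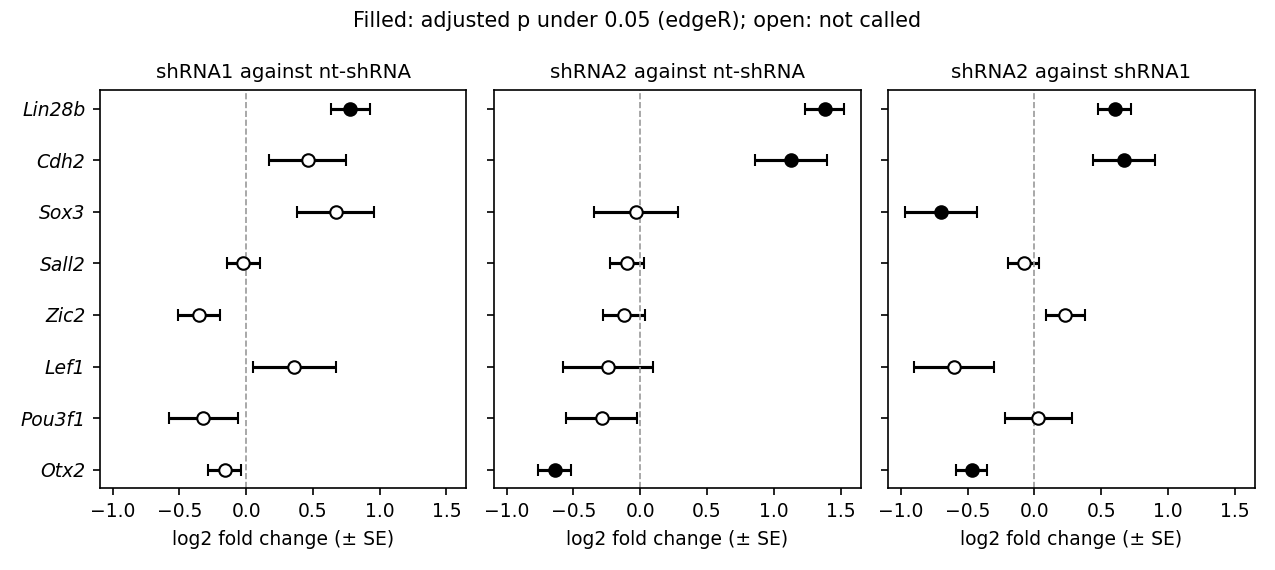
Log2 fold change (x axis, ± SE) of the 8 tested markers (y axis) in each of the 3 comparisons, with filled points for genes called by edgeR at an adjusted p under 0.05. *Lin28b* lies at 0.78 with shRNA1 and 1.38 with shRNA2, and *Otx2* at -0.16 and -0.64.

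The promoters of *Otx2* and *Lin28b* are shown because these genes had the smallest adjusted p-values among the markers, one lower and the other higher with shRNA2. RefSeq windows (GRCm38.p6, 250 bases before a transcript start to 50 after it) were found for 5 of the 8 markers looked up, *Fgf5*, *Otx2*, *Lef1*, *Lin28b* and *Sall2*, with 12 windows in all. They were searched on both strands for CTTTGA (bound by LEF and TCF factors), TAATCC (bound by OTX factors) and ATGCAAAT (the POU octamer), which 16.0%, 7.06% and 1.74% of all 32851 windows hold. *Otx2* and *Lef1* had several windows each, so these shares, which are per window, understate how often such a gene holds a match. One window of *Otx2* held an OTX match and is the one printed, with the match in capitals as it reads on the strand of the gene. One window of *Lef1*, which encodes a LEF factor, held 2 matches to CTTTGA. The *Lin28b* window and the other windows held none of these letters. The windows printed are chr14:48665060-48665359 and chr10:45470152-45470451, both on the minus strand, with GC contents of 51.0% and 39.0% against a median of 52.7% over all windows.
Otx2: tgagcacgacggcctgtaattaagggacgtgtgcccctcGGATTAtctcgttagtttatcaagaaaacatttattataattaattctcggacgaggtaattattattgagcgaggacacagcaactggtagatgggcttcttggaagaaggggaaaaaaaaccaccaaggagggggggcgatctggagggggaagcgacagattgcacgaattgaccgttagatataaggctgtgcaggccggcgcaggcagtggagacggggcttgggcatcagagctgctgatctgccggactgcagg
Lin28b: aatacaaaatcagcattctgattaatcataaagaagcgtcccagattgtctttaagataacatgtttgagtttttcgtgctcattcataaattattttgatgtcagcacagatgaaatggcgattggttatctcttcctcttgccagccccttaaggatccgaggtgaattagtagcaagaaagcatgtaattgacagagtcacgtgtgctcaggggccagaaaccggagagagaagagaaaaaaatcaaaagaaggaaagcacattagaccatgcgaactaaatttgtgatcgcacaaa

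Among the transcription factors, *Otx2* (chromosome 14, 48657677 to 48673819, minus strand, GRCm38) was the marker that fell with shRNA2. Otx2 is a homeodomain protein that drives the step from the naive to the formative state and later patterns the anterior brain. Its level was 39.5 and 53.6 CPM in the nt-shRNA libraries, 42.0, 42.0 and 41.0 CPM with shRNA1, and 29.5, 24.4 and 36.2 CPM with shRNA2. All 3 shRNA2 libraries lay below every other library, while the shRNA1 libraries lay between the 2 controls. The log2 fold change with shRNA2 was -0.64 ± 0.125 (SE, adjusted p = 2.6e-04, 1.55-fold lower). With shRNA1 it was -0.16 ± 0.123 (adjusted p = 0.333), and the direct difference of shRNA2 from shRNA1 was -0.47 ± 0.115 (adjusted p = 0.0037). The 2 controls differed in *Otx2*, and without nt-shRNA replicate 2 the change with shRNA2 was -0.40 (adjusted p = 0.0235) and that with shRNA1 was 0.07, and without nt-shRNA replicate 1 they were -0.84 and -0.36. No strand option appears in the counting command as far as the file header shows it, and *Otx2* shares 154 exonic bases with the opposite gene *Otx2os1*, which had 101 counts in the 8 libraries against 7488 for *Otx2*.

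*Pou3f1* (chromosome 4, 124656807 to 124660655), a POU-domain factor that acts with Otx2 in formative cells, was low in every group. It had 48 and 47 counts in the nt-shRNA libraries, 26, 19 and 53 with shRNA1, and 28, 33 and 31 with shRNA2. In CPM these were 1.80 and 1.64, then 1.17, 0.938 and 1.89, then 1.30, 1.49 and 1.42. The shRNA2 libraries lay below both controls, and the shRNA1 libraries spread to both sides of them. Neither change was called, at -0.32 ± 0.261 (SE, adjusted p = 0.372) with shRNA1 and -0.29 ± 0.264 (adjusted p = 0.368) with shRNA2 on the log2 scale. The change with shRNA1 was -0.69 (adjusted p = 0.0513) without shRNA1 replicate 3 and -0.14 (adjusted p = 0.749) without shRNA1 replicate 2. *Pou3f1* shares 330 exonic bases with *Gm2164* on the opposite strand, which had 0 counts.

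The zinc-finger gene *Zic2* (chromosome 14, 122475435 to 122479852), whose protein binds enhancers in pluripotent cells and later acts in the forebrain, was close to the threshold with shRNA1 and had 1 library that stood apart with shRNA2. Its level was 14.8 and 16.0 CPM in the nt-shRNA libraries, 11.2, 12.0 and 12.8 CPM with shRNA1, and 10.9, 18.9 and 12.7 CPM with shRNA2. All 3 shRNA1 libraries and 2 of the shRNA2 libraries lay below both controls, whereas shRNA2 replicate 2 lay above them. *Zic2* was not called with shRNA1 (log2 fold change -0.35 ± 0.158, adjusted p = 0.0962) or with shRNA2 (-0.12 ± 0.157, adjusted p = 0.531). Without shRNA2 replicate 2 it was called lower in both comparisons, at -0.35 with shRNA1 (adjusted p = 0.0154) and -0.38 with shRNA2 (adjusted p = 0.0118), and without shRNA2 replicate 1 it was 0.39 higher with shRNA2 than with shRNA1 (adjusted p = 0.0471). It was also called with shRNA1 when no filter was used (adjusted p = 0.0211) and when the shRNA1 and nt-shRNA libraries were fitted alone (adjusted p = 0.0218).

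*Sox3* (chromosome X, 60891366 to 60893430, minus strand), a SOXB1 factor of the early neural epiblast and a close relative of *Sox2*, differed between the hairpins. It was at 1.61 and 1.64 CPM in the nt-shRNA libraries, at 1.76, 2.57 and 3.35 CPM with shRNA1, and at 1.67, 0.902 and 2.20 CPM with shRNA2. The shRNA1 libraries all lay above both controls, and the shRNA2 libraries fell on both sides of them. The change with shRNA1 was 0.67 ± 0.29 on the log2 scale (SE, adjusted p = 0.0861) and that with shRNA2 was -0.03 ± 0.313 (adjusted p = 0.939). Without shRNA1 replicate 1 the change with shRNA1 was 0.88 (adjusted p = 0.0392), and without shRNA2 replicate 2 it was 0.68 (adjusted p = 0.0415), both called, whereas without shRNA1 replicate 3 it was 0.40 (adjusted p = 0.341). The direct difference of shRNA2 from shRNA1, -0.70 ± 0.27, was called at an adjusted p of 0.0483, close to the threshold. It was -0.44 (adjusted p = 0.289) without shRNA1 replicate 3 and -0.42 (adjusted p = 0.242) without shRNA2 replicate 2, and leaving out shRNA1 replicate 2, shRNA2 replicate 1 or either control also ended the call.

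*Sall2* (chromosome 14, 52311172 to 52328762, minus strand), a zinc-finger relative of the core factor *Sall4*, stayed between 7.31 and 8.27 CPM in all 8 libraries. It was at 8.02 and 7.87 CPM in the nt-shRNA libraries, at 7.31, 7.95 and 8.27 CPM with shRNA1, and at 7.39, 7.53 and 7.34 CPM with shRNA2. Its log2 fold change was -0.02 ± 0.124 (SE, adjusted p = 0.935) with shRNA1 and -0.10 ± 0.125 (adjusted p = 0.523) with shRNA2.

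*Lef1* (chromosome 3, 131110471 to 131224356), the LEF/TCF factor through which β-catenin activates its targets in the primed state, was low in every library. It had 14 and 22 counts in the nt-shRNA libraries, 20, 16 and 23 with shRNA1, and 13, 10 and 13 with shRNA2. In CPM the shRNA1 libraries, at 0.902, 0.790 and 0.820, lay above both controls, at 0.525 and 0.766, and above the shRNA2 libraries, at 0.605, 0.451 and 0.597. None of the differences was called: the log2 fold change was 0.36 ± 0.311 with shRNA1 (SE, adjusted p = 0.398), -0.24 ± 0.339 with shRNA2 (adjusted p = 0.572) and -0.60 ± 0.301 for shRNA2 against shRNA1 (adjusted p = 0.129). Without nt-shRNA replicate 1 the changes were 0.13 with shRNA1 and -0.48 with shRNA2, and without nt-shRNA replicate 2 they were 0.67 and 0.06. *Lef1* shares 1208 exonic bases with *Gm43352* on the opposite strand, which had 0 counts.

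*Fgf5* (chromosome 5, 98254184 to 98277030), which encodes a secreted fibroblast growth factor and is the classical marker of the primed epiblast, was at background. It had 2 counts in each nt-shRNA library, 0, 0 and 2 counts with shRNA1 and 0 counts in all 3 shRNA2 libraries. A count of 0 allows up to 3 counts, or between 0.1353 and 0.1395 CPM in the shRNA2 libraries, so a difference in *Fgf5* was not detectable at this depth and no fold change is given.

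*Lin28b* (chromosome 10, 45376620 to 45486395, minus strand) had the smallest adjusted p-value of the markers in both KD comparisons. It encodes an RNA-binding protein that blocks maturation of let-7 microRNAs and rises as mESCs leave the naive state. Its level was 5.96 and 5.64 CPM in the nt-shRNA libraries, 11.2, 11.1 and 7.81 CPM with shRNA1, and 15.0, 15.1 and 15.2 CPM with shRNA2. The 3 groups did not overlap: each shRNA1 library lay above both controls and each shRNA2 library above every shRNA1 library. The share of all tested genes whose groups separate in this way was not counted. On the log2 scale *Lin28b* rose by 0.78 ± 0.148 with shRNA1 (SE, adjusted p = 5.6e-04, 1.72-fold) and by 1.38 ± 0.145 with shRNA2 (adjusted p = 2.0e-07, 2.60-fold). The direct difference of shRNA2 from shRNA1 was 0.60 ± 0.122 (adjusted p = 9.3e-04, 1.52-fold).

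The paralog *Lin28a*, which blocks let-7 in the cytoplasm, moved differently. It was at 61.3 and 56.2 CPM in the nt-shRNA libraries, at 40.3, 36.5 and 39.1 CPM with shRNA1, and at 74.3, 91.6 and 60.3 CPM with shRNA2. It fell by 0.60 on the log2 scale with shRNA1 (adjusted p = 5.4e-04) and rose by 0.36 with shRNA2 (adjusted p = 0.0109), and the direct difference was 0.96 (adjusted p = 2.7e-06). Thus both paralogs were higher with shRNA2 than with shRNA1, whereas against nt-shRNA they were called in opposite directions with shRNA1. The call of *Lin28a* with shRNA2 was lost by DESeq2 (adjusted p = 0.0791), without shRNA2 replicate 2 (0.20, adjusted p = 0.0641) and without nt-shRNA replicate 2 (0.30, adjusted p = 0.104).

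*Cdh2* (chromosome 18, 16588877 to 16809246, minus strand), which encodes N-cadherin, the cadherin of the primed epiblast and mesenchyme, was also higher with shRNA2. It had 26 and 22 counts in the nt-shRNA libraries, 29, 25 and 30 with shRNA1, and 37, 54 and 34 with shRNA2. In CPM these were 0.975 and 0.766, then 1.31, 1.23 and 1.07, then 1.72, 2.44 and 1.56. In CPM the groups did not overlap and were ordered nt-shRNA, shRNA1, shRNA2. The gap between the controls and shRNA1 was narrow (0.975 against 1.07 CPM), and the raw counts of these 2 groups overlapped. A step from nt-shRNA to shRNA1 is thus not shown. On the log2 scale the change was 0.46 ± 0.287 with shRNA1 (SE, adjusted p = 0.238) and 1.13 ± 0.27 with shRNA2 (adjusted p = 0.0015, 2.19-fold). The direct difference was 0.67 ± 0.234 (adjusted p = 0.031), but it was 0.46 (adjusted p = 0.193) without shRNA2 replicate 2, and it was not called without shRNA1 replicate 2 (adjusted p = 0.059), without shRNA1 replicate 3 (adjusted p = 0.11) or by DESeq2 (adjusted p = 0.0984).

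The epithelial cadherin *Cdh1*, which naive cells use for adhesion, was lower with shRNA2. Its mean was 867 CPM with nt-shRNA, 795 CPM with shRNA1 and 671 CPM with shRNA2. On the log2 scale it was at -0.13 (adjusted p = 0.135) with shRNA1 and fell by 0.37 (adjusted p = 5.1e-05) with shRNA2.

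Markers of other cell types were measured beside these genes, and their counts stand against 13.8% of all tested genes called higher and 17.1% lower with shRNA1, and 27.2% and 28.7% with shRNA2. Of 7 fibroblast markers, 3 were tested and 1 was called higher with each hairpin, *Col1a2*, a collagen gene, by 1.27 and 1.66 on the log2 scale (the call with shRNA1 was lost without nt-shRNA replicate 1, at 0.91). That list summed to 4.60 to 5.02 CPM with nt-shRNA, 6.51 to 7.34 CPM with shRNA1 and 6.28 to 7.57 CPM with shRNA2. Of 8 neural markers, 5 were tested and 1 rose and 1 fell with each hairpin: *Tubb3*, a neuronal tubulin, rose by 1.58 with shRNA2, and *Nes*, an intermediate filament of neural progenitors, fell by 1.38. The call of *Tubb3* with shRNA1 was lost without nt-shRNA replicate 2 (0.50, adjusted p = 0.0919). The summed neural list was at 78.3 to 80.1 CPM with nt-shRNA, 64.3 to 74.9 CPM with shRNA1 and 58.1 to 68.3 CPM with shRNA2. Of 9 primitive streak and mesoderm markers, 5 were tested. With shRNA1, 1 was called lower, *T* (brachyury), at -0.81 (adjusted p = 0.0483), a call lost under 11 of 15 alternative settings, among them leaving out any 1 shRNA1 or nt-shRNA library (-0.58 without nt-shRNA replicate 2). *T*, named after its values were seen, was 1.21 higher with shRNA2 than with shRNA1 (adjusted p = 0.002). With shRNA2, 2 were called higher and 1 lower, led by *Mixl1* at 0.81 (adjusted p = 0.0498) and *Tbx6* at -0.87 (adjusted p = 0.0277), calls that were lost under 10 and 4 of 14 alternative settings, among them leaving out either control library for *Mixl1* and nt-shRNA replicate 1 for *Tbx6*. The summed streak list ran from 28.0 to 33.1 CPM over all libraries, and *Cer1* had 0 counts in all of them. The part of these cell types in the marker changes was not tested.

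**Figure D2:**
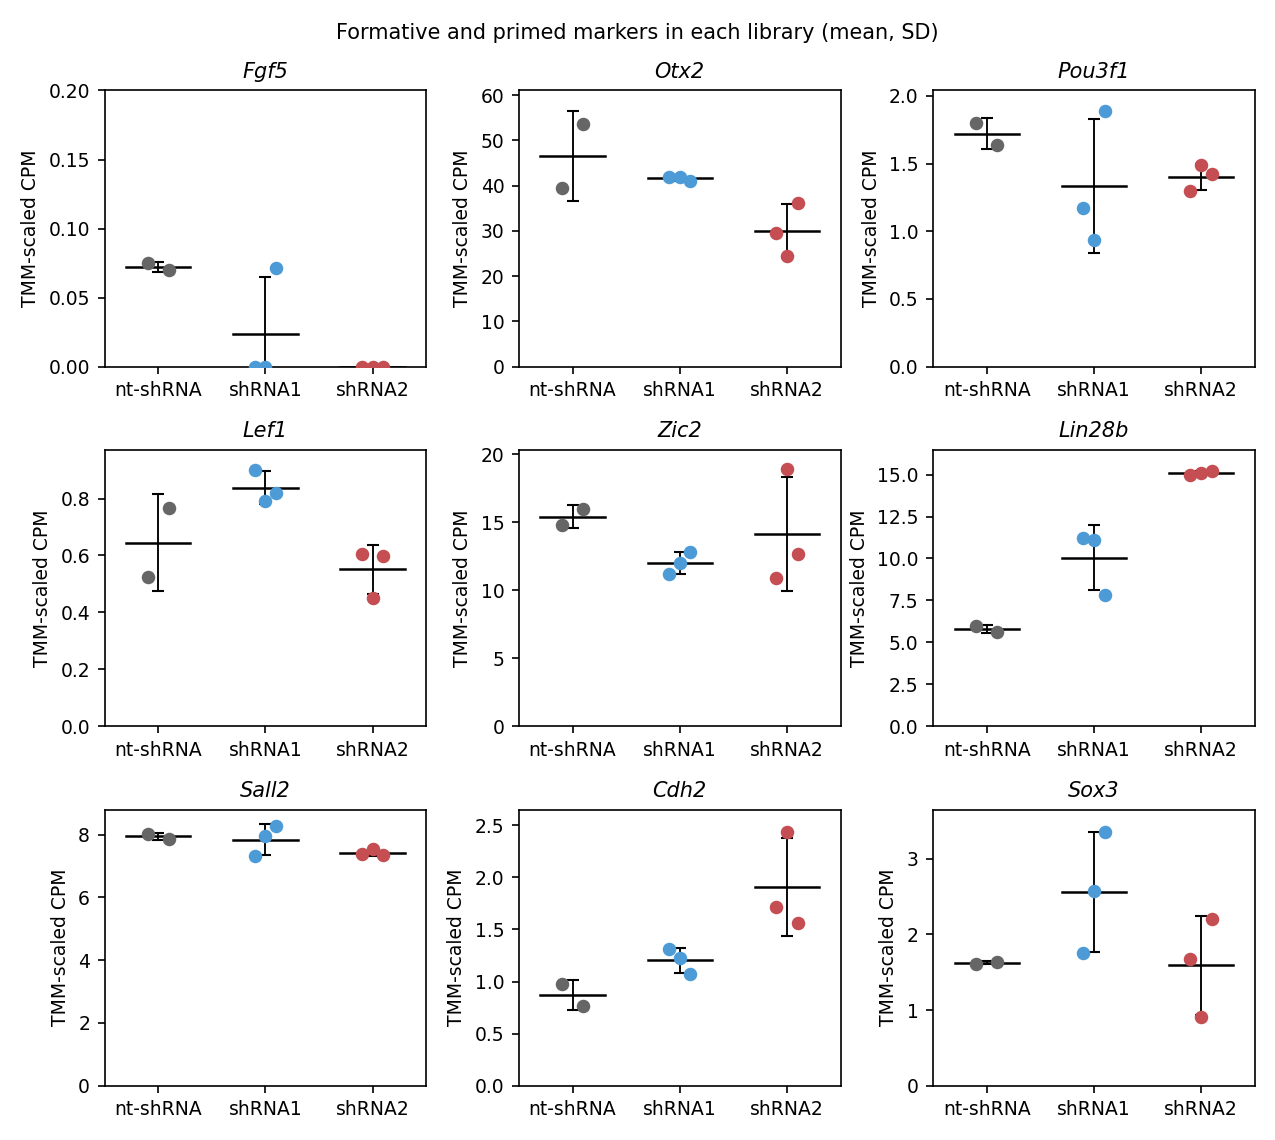
TMM-scaled CPM (y axis, from 0) of each marker in the 2 nt-shRNA, 3 shRNA1 and 3 shRNA2 libraries (points), with the mean (line) and SD (bars). The 3 groups of *Lin28b* and of *Cdh2* do not overlap, narrowly so between nt-shRNA and shRNA1 for *Cdh2*. The shRNA2 libraries of *Otx2* (24.4 to 36.2 CPM) lie below all others, and shRNA2 replicate 2 stands apart in *Zic2* at 18.9 CPM. The share of all tested genes with groups that separate was not counted.

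Levels of different markers were compared per length, as CPM per kilobase of the deposited gene length. In the nt-shRNA libraries the order of the means was *Otx2* (11.0), *Zic2* (5.35), *Sall2* (1.46), *Sox3* (0.787), *Lin28b* (0.640), *Pou3f1* (0.446), *Cdh2* (0.108), *Lef1* (0.0735) and *Fgf5* (0.0289), and neighbours in this order did not overlap between the 2 libraries. With shRNA2, *Lin28b* stood at 1.67 ± 0.0145 (SD, n = 3), above *Sall2* at 1.37 ± 0.0179 and *Sox3* at 0.771 ± 0.317. With shRNA1, the libraries of *Sox3*, at 1.24 ± 0.385, overlapped those of *Sall2*, at 1.44 ± 0.0903, and those of *Lin28b*, at 1.11 ± 0.213 (SD, n = 3 each), while every *Sall2* library lay above every *Lin28b* library. *Otx2* kept the highest mean of the markers in each group, but with shRNA2 its libraries (5.77 to 8.58) overlapped those of *Zic2* (3.78 to 6.55).

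**Figure D3:**
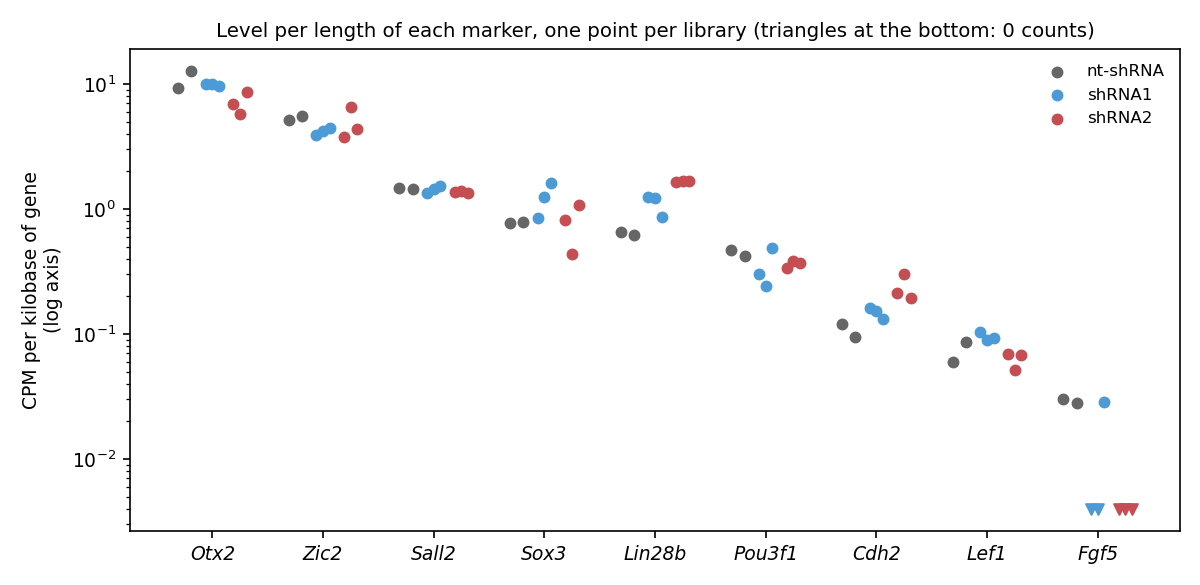
CPM per kilobase of gene (y axis, log scale) for each marker in every library, coloured by group and ordered by the nt-shRNA mean, with triangles for libraries at 0 counts. The markers span from 11.0 for *Otx2* to 0.0289 for *Fgf5* in the nt-shRNA means, and *Lin28b* passes *Sall2* with shRNA2.

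The partners of the markers were examined as a list of 21 relatives and pathway genes. With shRNA1, 2 were called higher and 3 lower, where 13.8% and 17.1% of all tested genes were called. With shRNA2, 9 were called higher and 3 lower, where the shares were 27.2% and 28.7%, with a median log2 fold change of 0.01 for shRNA1 and 0.10 for shRNA2 beside -0.01 and 0.00 over all tested genes. In the β-catenin pathway of *Lef1*, *Axin2*, a feedback inhibitor and direct target of the pathway, rose by 0.38 on the log2 scale (adjusted p = 0.0096) with shRNA1 and by 0.90 (adjusted p = 6.7e-07) with shRNA2. *Tcf7l1*, the repressing family member, was at -0.16 with shRNA1 (adjusted p = 0.111) and rose by 0.25 with shRNA2 (adjusted p = 0.0074). Without nt-shRNA replicate 1, neither *Axin2* with shRNA1 (0.32, adjusted p = 0.118) nor *Tcf7l1* with shRNA2 (0.20, adjusted p = 0.109) was called. Among the fibroblast growth factors, *Fgf4*, which drives exit from the naive state through MEK, was at -0.19 (adjusted p = 0.0856) with shRNA1 and -0.69 (adjusted p = 8.4e-07) with shRNA2, the lowest called partner. With shRNA1 *Fgf4* was called under 5 of 15 alternative settings, among them without shRNA2 replicate 2 or 3. The highest called partner was *Pou3f3*, a relative of *Pou3f1*, at 0.91 (adjusted p = 0.0044) with shRNA2. *Zic5*, a relative of *Zic2*, was at -0.21 and -0.23 and was not called in either comparison. Without shRNA2 replicate 2, which had the highest level of *Zic2* and of *Zic5* among the shRNA2 libraries, the change of *Zic5* with shRNA2 was -0.37 (adjusted p = 0.0176) and was called. The relatives *Sox2* (-0.14 and -0.02) and *Otx1* (0.08 and -0.13) were also not called in either comparison.

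A wider list of 25 other formative and primed genes, all tested and including *Zic5*, had calls in both directions, with shRNA2 near the shares of all tested genes. With shRNA1, 6 were called higher and 8 lower, where 13.8% and 17.1% of all tested genes were called. With shRNA2, 7 were called higher and 8 lower, where 27.2% and 28.7% of all tested genes were called, with a median log2 fold change of -0.10 for shRNA1 and 0.01 for shRNA2. The ends of this list with shRNA2 were *Nkx1-2*, a homeobox gene of the caudal epiblast, at 3.56 (adjusted p = 1.9e-06), and *Lefty1*, an inhibitor of Nodal, at -3.83 (adjusted p = 1.7e-08). The controls differed in *Lefty1*, at 8.55 and 19.7 CPM, and its change with shRNA2 was -3.10 without nt-shRNA replicate 2 and -4.30 without nt-shRNA replicate 1. *Nkx1-2* was at 0.187 and 0.209 CPM in the nt-shRNA libraries, at 0.226, 0.0987 and 0.178 CPM with shRNA1, and at 2.46, 3.43 and 1.29 CPM with shRNA2. It had 5 and 6 counts with nt-shRNA and 5, 2 and 5 with shRNA1. It thus passed the expression filter only through the shRNA2 libraries, where it was high, and no conclusion is drawn from its place at the end of the list.

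Of 15 naive pluripotency genes, 8 were called higher and 2 lower with shRNA1, and 11 higher and 2 lower with shRNA2, with medians of 0.20 and 0.39. Over all tested genes, 13.8% were called higher and 17.1% lower with shRNA1, and 27.2% and 28.7% with shRNA2. *Tet2*, an enzyme that oxidizes methylated cytosine, rose by 1.57 (adjusted p = 2.9e-10) with shRNA2, and *Tcl1*, a cofactor of Akt, fell by 1.21 (adjusted p = 1.5e-09). Summed over the list, the naive genes took 4180 to 4230 CPM with nt-shRNA, 4830 to 5090 CPM with shRNA1 and 5980 to 6120 CPM with shRNA2, whereas the 9 markers summed to 73.3 to 88.0, 76.9 to 78.6 and 68.1 to 77.2 CPM. The summed marker level overlapped between each KD and the control, and *Otx2* gave its largest share. Of the 3 core genes, *Pou5f1* fell by 0.35 (adjusted p = 3.7e-04) with shRNA1 and by 0.29 (adjusted p = 8.6e-04) with shRNA2, and *Sall4* rose by 0.56 (adjusted p = 6.1e-06) with shRNA2.

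**Figure D4:**
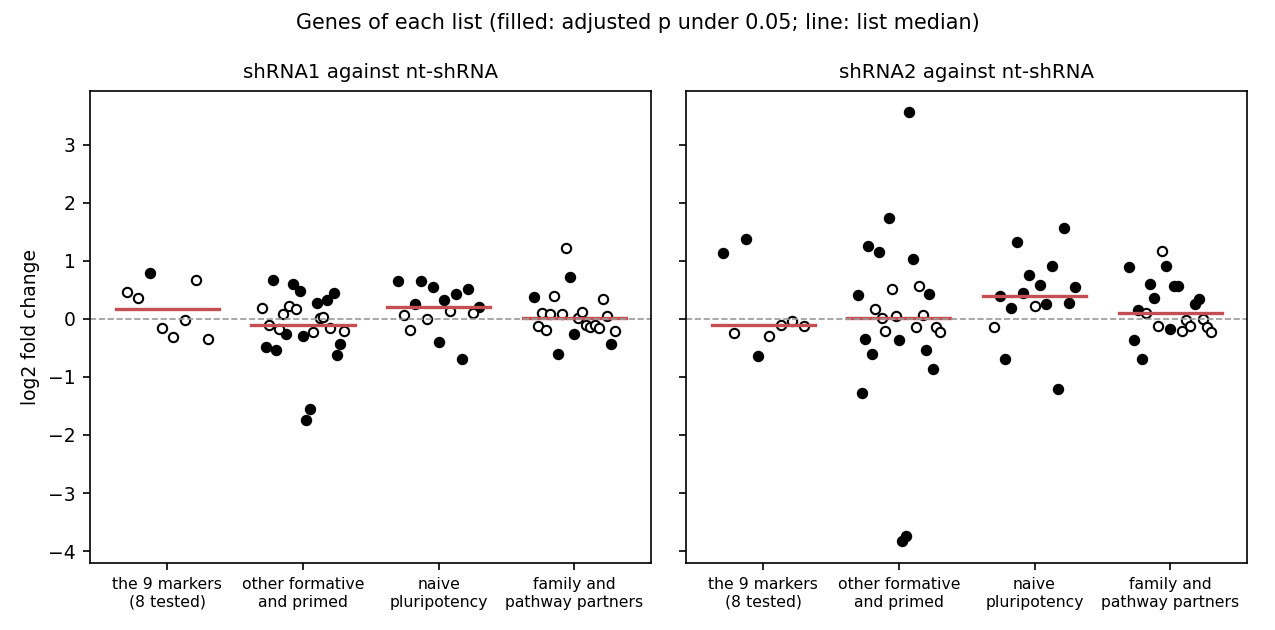
Log2 fold change (y axis) of each tested gene (points, filled where edgeR called it) in 4 lists (x axis) against nt-shRNA, with shRNA1 on the left, shRNA2 on the right and the list median as a line. The naive genes have medians of 0.20 and 0.39, the 8 tested markers 0.17 and -0.11.

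Over the 8 libraries, the gene whose pattern lay nearest to each marker was taken as the one with the smallest root mean square difference of log2 values. Each gene was first centred on its own mean over the nt-shRNA libraries. For *Lin28b* this was *Cfap74* (0.0946), for *Otx2* *Ttc39a* (0.0711), for *Cdh2* *Gm45902* (0.113) and for *Sall2* *Dgat1* (0.0238). For *Cdh2* the next gene was tied with *Gm45902* to the digits given (0.113). The nearest genes to *Pou3f1*, *Lef1*, *Zic2* and *Sox3* were *Efnb1* (0.122), *9130230L23Rik* (0.0776), *Atxn7l2* (0.112) and *Fbln2* (0.192). The next gene to *Zic2* lay almost as near (0.113).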

How the data were processed

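RNA-seq libraries of R1 mESCs with shRNA1 (3), shRNA2 (3) or nt-shRNA (2) were grouped by their titles. After alignment with STAR, the authors assigned read pairs to exons by featureCounts 1.6.2 and deposited the raw counts of 55385 genes of GENCODE M24 (GRCm38), beside a gene length that was used here for levels per kilobase. The part of the counting command in the file header shows no strand option, so overlapping and antisense genes are uncertain. The submitters' processing notes name the build mm10. Symbols were taken from GENCODE M21 for 55144 genes, and 0 sample columns were left out.

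The software was edgeR 4.0.16 with limma 3.58.1 under R 4.3.3. Counts went through filterByExpr (minimum count 10, 17445 genes), TMM, and glmQLFit with glmQLFTest over all 8 libraries with a coefficient per group. Genes with a Benjamini-Hochberg adjusted p under 0.05 over all tested genes were called. The standard error was taken from the F statistic. The biological coefficient of variation was 0.0638, and depth ran from 19569525 to 29871048 counts. The code was tested on simulated data. Intervals and limits from counts cover counting error only.

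The markers and lists were chosen with earlier results of these data known. Named genes are the 9 markers, the called gene with the highest and with the lowest change under shRNA2 in each list, the nearest relatives or partners of markers, the gene nearest in pattern to each, and *Eftud2*. Alternatives were DESeq2 1.42.0, its size factors, library size alone, no filter, a mean of at least 1 CPM, only the groups compared, the replicate number as a block and each library left out. Figures were drawn with matplotlib 3.10.9. Promoter windows came from RefSeq (GRCm38.p6). Splicing events, blots, qPCR and the zebrafish experiments were not analysed here. Some results under the rule for named genes are not reported here.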

Additional observations from a re-analysis of the deposited data

Results flagged for a closer look

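The difference between the hairpins was called for 4 of the 8 tested markers by edgeR's test of shRNA2 against shRNA1 itself, where 16.9% of all tested genes were called higher and 18.7% lower. *Lin28b* was 0.60 and *Cdh2* 0.67 higher with shRNA2 on the log2 scale, with every shRNA2 library above every shRNA1 library for both genes. *Otx2* was lower with shRNA2 (log2 difference -0.47), again without overlap between the groups, and *Sox3* was lower (-0.70) with overlapping groups. How many of all tested genes had hairpin groups without overlap was not counted. The calls of *Cdh2* and *Sox3* were lost by DESeq2 and when single libraries were left out. *Eftud2* itself differed between the hairpins by -0.11 (adjusted p = 0.164; -0.19 and called without shRNA2 replicate 3), and the part of KD strength or of the hairpin sequence in these differences was not tested.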

How the results depend on the processing

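The calls of *Lin28b* in the 3 comparisons and of *Otx2* and *Cdh2* with shRNA2 were made under every alternative run, with log2 fold changes with single libraries left out of 1.34 to 1.42 for *Lin28b* and -0.84 to -0.40 for *Otx2* with shRNA2. The number of markers higher with shRNA1 was 2 in place of 1, with *Sox3* added, with library size alone, with no filter, with only the groups compared and without shRNA1 replicate 1 or shRNA2 replicate 2 (range 1 to 2). The number lower with shRNA1 was 1 in place of 0, *Zic2*, with no filter and with only the groups compared (range with libraries left out 0 to 1), and that lower with shRNA2 ranged from 1 to 2, both with *Zic2* added without shRNA2 replicate 2. Between shRNA2 and shRNA1, the number higher was 1 in place of 2 by DESeq2. Among the runs with a library left out, *Cdh2* was not called without shRNA2 replicate 2, and *Zic2* was called higher without shRNA2 replicate 1. The number lower was 1 in place of 2 by DESeq2, at a mean of at least 1 CPM and with only the groups compared (range 1 to 2). The cause of these shifts was not tested. Library size alone moved the median of all genes by 0.114 with shRNA1 and 0.089 with shRNA2, and gave 4101 genes higher and 1713 lower with shRNA1, against 2407 and 2981. Same-numbered libraries did not deviate together (correlations from -0.026 to 0.074). With 2 or 3 libraries in a group, such correlations cannot show whether the replicate numbers pair the samples. In its qPCR, the paper compared each KD replicate with its corresponding nt-shRNA replicate, so a pairing of the libraries is possible. With the replicate block, 1 marker was higher and 0 lower with shRNA1, 2694 and 3324 genes were called, *Lin28b* was at 1.46 with shRNA2 and *Sox3* at 0.38 with shRNA1. *Fgf5*, *Lef1*, *Pou3f1* and *Cdh2* are limited by depth.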

Other observations

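Several genes from the list of other formative and primed genes were singled out after their values were seen. One group is the Nodal pathway, which acts in the epiblast: *Nodal*, the ligand, was at 42.2 and 50.6 CPM in the nt-shRNA libraries, at 53.8 to 58.9 CPM with shRNA1 and at 82.9 to 108 CPM with shRNA2. It rose by 0.28 on the log2 scale (edgeR adjusted p = 0.032) and by 1.03 (adjusted p = 5.2e-08). Its co-receptor *Tdgf1* rose by 0.45 (adjusted p = 0.0025) and 0.43 (adjusted p = 0.0015). The inhibitors moved the other way: *Lefty2* was at 44.5 and 78.3 CPM with nt-shRNA, at 15.0 to 25.6 CPM with shRNA1 and at 2.56 to 7.85 CPM with shRNA2. It fell by 1.56 (adjusted p = 6.8e-05) and by 3.74 (adjusted p = 2.8e-09). Over the 15 alternative settings its change ran from -1.91 to -1.10 with shRNA1 and from -4.38 to -3.28 with shRNA2. *Lefty1* was at -1.75 and -3.83, or at -1.03 with shRNA1 without nt-shRNA replicate 2. The call of *Nodal* with shRNA1 was lost without shRNA1 replicate 1 (0.25), shRNA1 replicate 2 (0.28) or nt-shRNA replicate 1 (0.16), that of *Tdgf1* with shRNA1 without nt-shRNA replicate 1 (0.38, adjusted p = 0.0507), while the call of *Nodal* with shRNA2 and both calls of *Lefty2* were kept under all 15 alternative settings.

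Another group is the de novo DNA methylation enzymes, whose members differed in direction. *Dnmt3b* rose from 40.4 and 36.7 CPM with nt-shRNA to 56.0, 66.3 and 62.3 CPM with shRNA1 and 95.5, 98.9 and 81.4 CPM with shRNA2 (log2 fold change 0.67 and 1.25, adjusted p = 1.8e-05 and 1.8e-09). The other methyltransferase, *Dnmt3a*, was at -0.10 (adjusted p = 0.327) with shRNA1 and fell by 0.35 (adjusted p = 3.6e-04) with shRNA2. The cofactor *Dnmt3l* fell by 0.54 (adjusted p = 3.6e-04) and 0.61 (adjusted p = 3.3e-05). A further gene is *Foxd3*, a forkhead factor of the epiblast, which rose by 0.60 (adjusted p = 0.0032) with shRNA1 and by 1.74 (adjusted p = 4.7e-09) with shRNA2, where its 3 libraries lay at 19.9, 25.9 and 19.9 CPM against 6.93 and 6.17 CPM with nt-shRNA. The list of primitive endoderm and trophoblast markers, 7 of 8 tested, had 3 called lower with shRNA2 by edgeR, where 28.7% of all tested genes were called lower, led by *Krt7*, a keratin, at -2.59 (adjusted p = 2.1e-10), and its summed level was 54.1 to 56.2 CPM with nt-shRNA, 39.3 to 50.9 CPM with shRNA1 and 22.1 to 25.4 CPM with shRNA2. Without *Krt7* the list summed to 25.2 to 26.6, 23.5 to 28.4 and 18.4 to 20.6 CPM, and with shRNA1 *Krt7* was the 1 gene of the list called lower, while 4 of the 7 tested had a positive log2 fold change.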
